A study of Mus musculus with 5 samples.

Results

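Type I interferon antiviral genes are described here in Kupffer cells, the resident macrophages of the liver sinusoids, with 1 or no working copy of Id3. The 37 genes were given as a list of symbols, and each symbol matched 1 row of the count table, so 37 of 46983 genes form the set. All 37 passed the filter on low counts that left 16436 genes for testing. Poly-A RNA was measured by RNA sequencing in 3 libraries of Id3 +/- (heterozygous) Kupffer cells, replicates 1, 2 and 3, and in 2 libraries of Id3 -/- (knockout) Kupffer cells, replicates 2 and 3. The Id3 protein pairs with E proteins, a class of transcription factors, and keeps them from binding DNA. The reference group thus also lacks 1 copy of Id3, and wild-type cells were not analysed here. The column names of the count table carry the mark 3w, which the labels do not explain. Not stated are strain, sex, age, the kind of knockout allele, any sorting of the cells and whether each library came from its own animal. The p-values therefore measure only the spread between these libraries.

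Type I interferons bind a receptor of 2 chains, IFNAR1 and IFNAR2, on nearly every cell. The receptor kinases JAK1 and TYK2 then start a signal in which STAT2 and IRF9 form part of a complex that binds the interferon-stimulated response element (ISRE) in the promoters of target genes. The products sense viral nucleic acids, degrade viral RNA, block translation, trap virus particles at membranes or carry the signal further. Macrophages keep a low tonic level of this programme and can raise it strongly on infection. Kupffer cells, which filter the portal blood, are among the liver cells that express it.

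Both knockout libraries were below every heterozygous one in 10 of the 37 genes and above every one in 5, and in the other 22 they took different positions. Of the 37 genes, 6 were lower in the knockout cells (Ddx58, Parp9, Dtx3l, Herc6, Trim30a and Ifi44; edgeR quasi-likelihood test, Benjamini-Hochberg adjusted p under 0.05) and 0 were higher. Over all genes tested, 16.4% passed, 6.41% as higher and 10.0% as lower, so the 16.2% of members called lower compares with 10.0%. The median log2 fold change (knockout minus heterozygous) was 0.07 over the members and -0.02 over all genes. At an unadjusted p under 0.05, 2 members were higher (5.41%, against 14.8% of all genes) and 8 lower (21.6%, against 18.7%). DESeq2 called 2 members higher (Lgals3bp and Usp18) and 8 lower, and 27.9% of all genes. limma-voom called 1 member higher (Lgals3bp) and 6 lower, and 17.5% of all genes. Knockout replicate 3 exceeded knockout replicate 2 in 34 of the 37 genes, against 50.7% of all genes tested. No test stands behind that comparison, since it sets 1 library against 1 other.

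**Figure D1:**
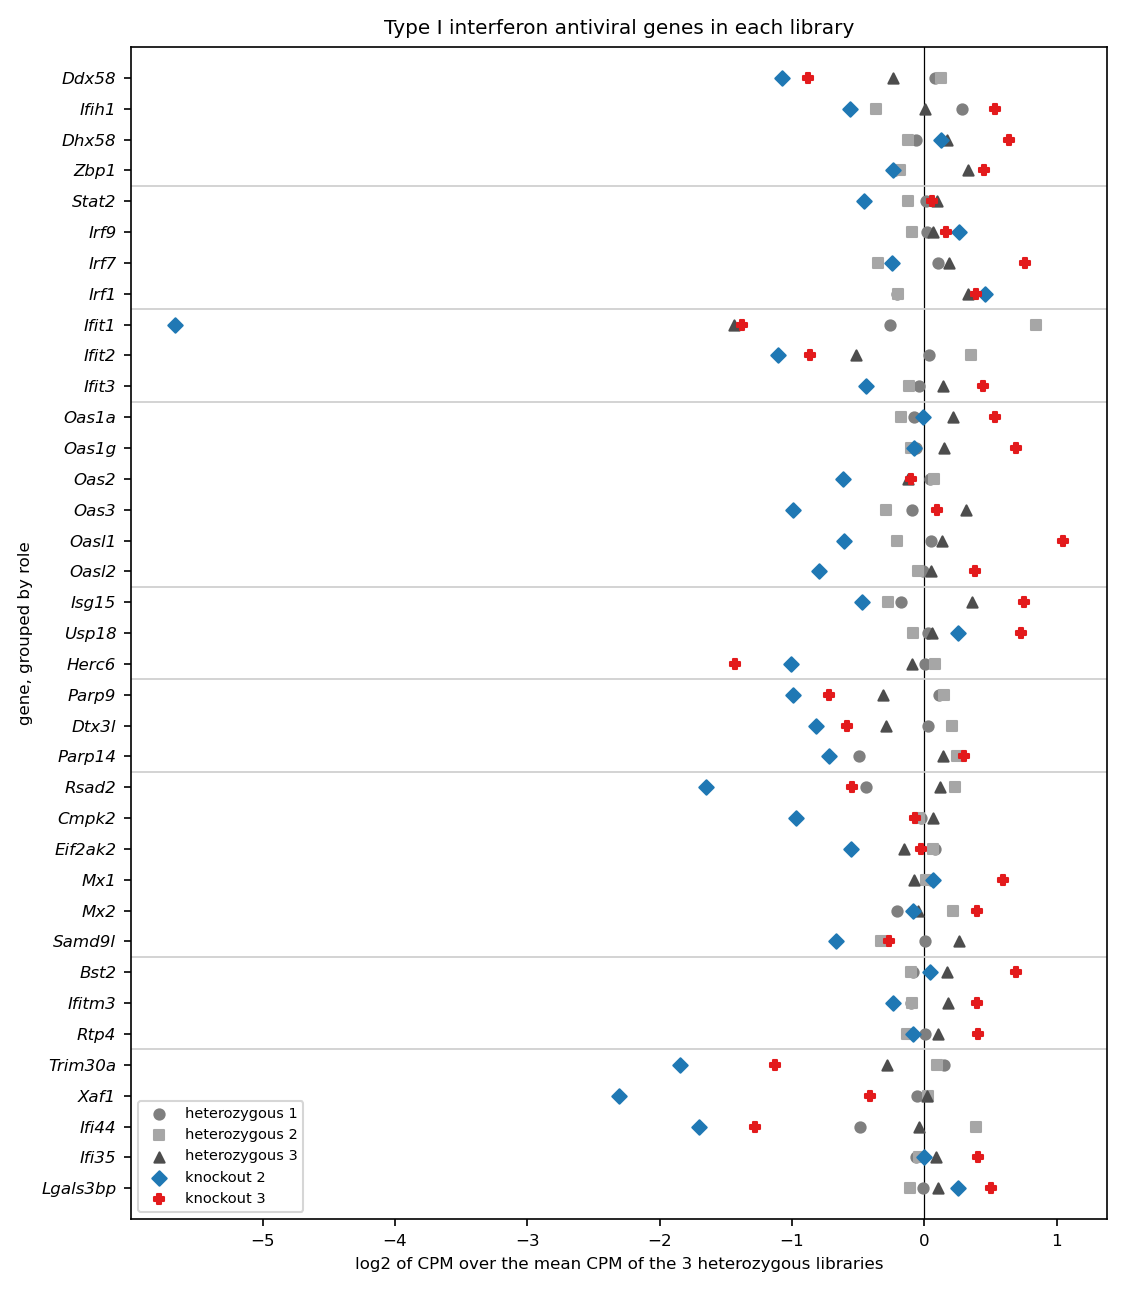
Level of each of the 37 genes in each library as the log2 ratio of its CPM to the mean CPM of the 3 heterozygous libraries (x axis), with genes grouped by role (y axis); each point is 1 library. Knockout replicate 3 lies to the right of knockout replicate 2 in 34 of the 37 genes, with Herc6, Irf9 and Irf1 as the exceptions.

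Promoter sequences are shown for 5 genes because the ISRE is the element through which type I interferons act, and because Irf1 carries a different element. RefSeq (GRCm38.p6) gave a promoter for 28 of the 37 genes, and the 250 bases before each start were searched on both strands. The ISRE letters GAAANNGAAA stood in this window in 10 of the 28 genes (35.7%), against 936 of 27025 genes (3.46%). The letters TTCNNNGAA, the gamma-activated site (GAS) known from interferon gamma targets, stood in 5 of the 28 (17.9%), against 8.13% of genes. The E-box CAGCTG, a type of site that E proteins bind, stood in 6 (21.4%), against 14.72%. A match is a description of letters and not a binding site. In the lines that follow, capitals mark the ISRE letters in Isg15 (chr4:156200819-156201068, minus strand), Ifit1 (chr19:34640639-34640888, plus strand), Oas1a (chr5:120907526-120907775, minus strand) and Oas1g (chr5:120887614-120887863, minus strand), and the GAS letters in Irf1 (chr11:53769764-53770013, plus strand).
Isg15: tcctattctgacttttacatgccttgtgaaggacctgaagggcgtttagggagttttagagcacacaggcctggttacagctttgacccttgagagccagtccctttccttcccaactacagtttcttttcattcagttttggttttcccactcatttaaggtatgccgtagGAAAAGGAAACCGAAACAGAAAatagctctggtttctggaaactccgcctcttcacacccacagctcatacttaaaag
Ifit1: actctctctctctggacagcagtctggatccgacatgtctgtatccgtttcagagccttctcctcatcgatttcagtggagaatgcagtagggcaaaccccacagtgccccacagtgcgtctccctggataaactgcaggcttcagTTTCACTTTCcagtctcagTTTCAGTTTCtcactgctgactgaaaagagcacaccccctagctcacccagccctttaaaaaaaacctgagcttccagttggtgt
Oas1a: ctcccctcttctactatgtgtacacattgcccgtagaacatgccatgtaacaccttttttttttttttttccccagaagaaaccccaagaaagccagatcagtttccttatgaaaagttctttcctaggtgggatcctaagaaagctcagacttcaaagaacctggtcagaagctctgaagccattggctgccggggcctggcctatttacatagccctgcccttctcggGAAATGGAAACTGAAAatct
Oas1g: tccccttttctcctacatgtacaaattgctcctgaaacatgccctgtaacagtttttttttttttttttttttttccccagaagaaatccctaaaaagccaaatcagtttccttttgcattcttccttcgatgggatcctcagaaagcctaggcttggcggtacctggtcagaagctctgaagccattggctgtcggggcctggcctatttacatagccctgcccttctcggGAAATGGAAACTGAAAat
Irf1: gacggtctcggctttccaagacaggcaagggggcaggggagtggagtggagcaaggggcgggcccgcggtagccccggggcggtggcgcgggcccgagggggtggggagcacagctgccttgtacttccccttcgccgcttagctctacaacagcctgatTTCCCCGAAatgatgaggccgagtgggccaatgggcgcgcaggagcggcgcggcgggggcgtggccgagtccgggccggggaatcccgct
Isg15 holds 3 overlapping matches between positions -78 and -57 from the start, and Ifit1 holds 2 separate ones between -104 and -76. The tandem copies Oas1a and Oas1g each hold 2 overlapping matches, ending 5 and 3 bases before the start (positions -5 and -3), in windows that were 86.9% identical over aligned bases. The GAS letters of Irf1 stand at positions -90 to -82.

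The libraries held 74823374 to 80944135 counts assigned to genes. Id3 itself was at 222 to 256 CPM (counts scaled to library size, TMM-normalised) in the heterozygous and at 1.01 and 1.42 CPM in the knockout libraries, so each library matched its label. Of 10 Kupffer cell markers, 3 were called higher (Marco, C1qb and C1qc) and 0 lower, and they summed to 59021 to 64911 CPM in the heterozygous libraries and to 71474 and 64590 CPM in knockout replicates 2 and 3. Clec4f, the marker most restricted to Kupffer cells, stood at 16457 to 17237 CPM in the heterozygous libraries. In knockout replicates 2 and 3 it was at 15649 and 13582 CPM, below every heterozygous library. Vsig4, Timd4 and Adgre1 were also below in both (log2 fold change -0.25, -0.25 and -0.31), and none of these was called. In C1qa and Cd5l, as in the 3 called markers, both knockout libraries were above, and Csf1r overlapped. The hepatocyte markers, of which 7 of 10 were called lower, summed to 19545 to 23713 CPM in the heterozygous libraries, 4230 CPM in knockout replicate 2 and 9648 CPM in knockout replicate 3. Alb, at 9238 to 11794, 1718 and 4292 CPM, was the largest part of this sum. Ttr (273 to 292, 114 and 411 CPM) and Apoa2 (953 to 982, 484 and 1347 CPM) were not called. Both were below the heterozygous range in knockout replicate 2 and above it in knockout replicate 3. Apoa1 was below it in both and was not called. The neutrophil markers, with 4 of 10 called higher, summed to 7.37 to 11.6, 215 and 33.0 CPM in the same order. The monocyte markers, with 3 of 8 called higher (Ly6c2, Ace and Nr4a1), summed to 194 to 331, 445 and 449 CPM. Those of sinusoidal endothelium, with 2 of 6 called lower (Lyve1 and Cdh5), summed to 938 to 1092, 913 and 847 CPM. Early response genes known from tissue dissociation, with 7 of 10 called higher, summed to 589 to 609, 1899 and 1557 CPM. For plasmacytoid dendritic cells, the main producers of type I interferon, 1 of 8 markers was called higher (Cox6a2) and the sums were 35.5 to 54.3, 85.3 and 52.8 CPM. Their defining marker Siglech stood at 0 to 1.19 CPM, Ccr9 at 0 to 0.401 CPM and Klk1 at 0 in all libraries, while Ly6d, at 13.2 to 50.6 CPM, and Spib, at 12.9 to 24.8 CPM, made up most of the sum. The B cell markers, with 0 of 5 called, summed to 97.2 to 142, 212 and 123 CPM in the same order. Those of T and NK cells, with 1 of 9 called higher (Tbx21), summed to 13.7 to 38.1, 69.4 and 30.7 CPM. Those of conventional dendritic cells, with 1 of 7 called higher (Batf3), summed to 59.3 to 73.6, 104 and 83.4 CPM. The part of these other cell types in the results that follow was not tested. In such bulk samples, fewer cells of a type and less RNA per cell cannot be told apart.

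The summed level of the 37 genes showed the split between the knockout libraries. It was 5324, 4966 and 5970 CPM in heterozygous replicates 1 to 3, 5086 CPM in knockout replicate 2 and 7391 CPM in knockout replicate 3. Knockout replicate 2 thus lay within the heterozygous range and knockout replicate 3 above it. Lgals3bp and Ifitm3 made up much of this sum. Without them, the remaining 35 genes summed to 3008 to 3665 CPM in the heterozygous libraries, 2902 CPM in knockout replicate 2, which was now below that range, and 4507 CPM in knockout replicate 3.

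Set against the heterozygous range gene by gene, the knockout libraries took 5 patterns. Both knockout libraries were below the range in 10 genes (27.0%; 26.9% of all genes tested) and both above it in 5 (13.5%; 24.6%), so that the genotypes did not overlap in 15 of 37, against 51.5% of all genes. Knockout replicate 2 was below the range and knockout replicate 3 above it in 8 genes, which were Ifih1, Zbp1, Ifit3, Oasl1, Oasl2, Isg15, Parp14 and Ifitm3 (21.6%, against 3.49% of all genes tested). Knockout replicate 2 was within and replicate 3 above in another 8, which were Dhx58, Irf7, Oas1a, Oas1g, Mx2, Bst2, Rtp4 and Ifi35 (21.6%, against 7.21%). Knockout replicate 2 was below and replicate 3 within in 6, which were Stat2, Ifit1, Oas2, Oas3, Eif2ak2 and Samd9l (16.2%, against 7.59%). The other 4 positions, in which knockout replicate 3 is the lower one or both are within, held 0 members and 30.2% of all genes tested.

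**Figure D2:**
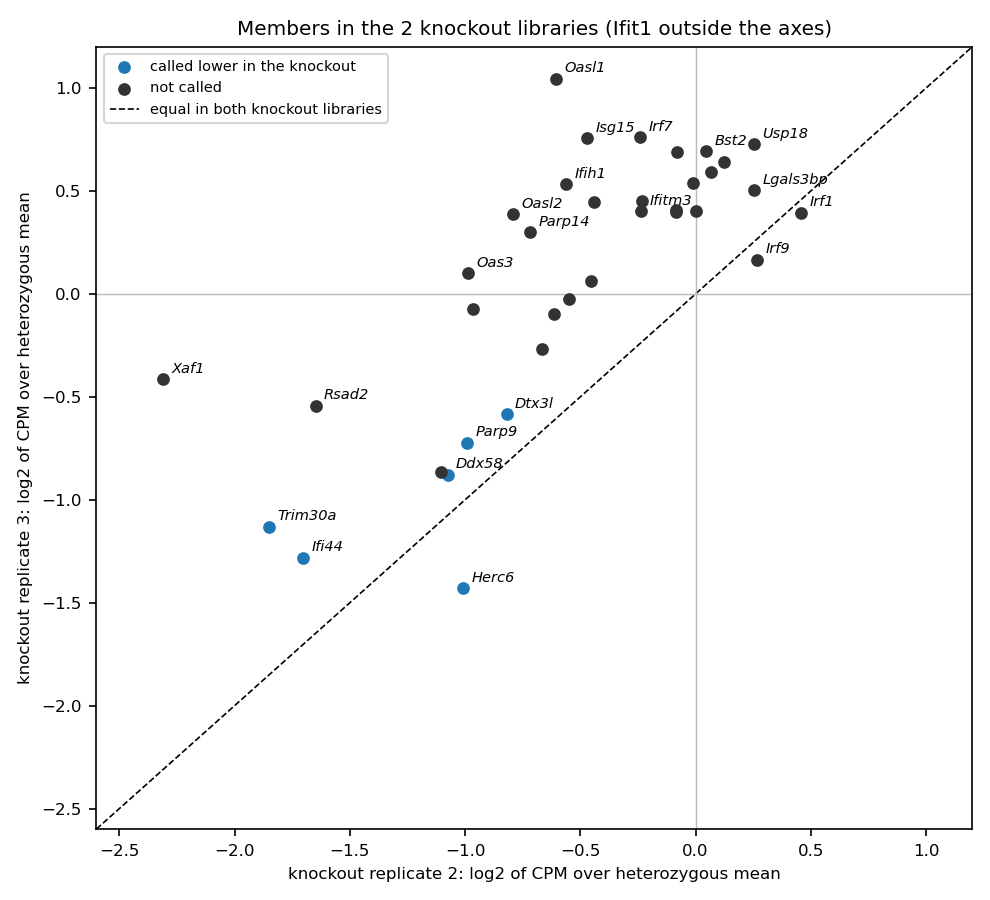
Log2 ratio of CPM to the heterozygous mean in knockout replicate 2 (x axis) and in knockout replicate 3 (y axis); each point is 1 of 36 genes, with Ifit1 beyond the axes, and blue points are the 6 genes called lower. Points above the dashed line, at which both libraries are equal, are higher in knockout replicate 3.

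The size of the difference between the knockout libraries was a median log2 difference of 0.53 over the members and 0.01 over all genes (log2 CPM with a prior count of 2). At least 2-fold higher in knockout replicate 3 were 10 of the 37 members, against 10.1% of all genes, and 0 were at least 2-fold lower, against 7.08%. In either direction 17.2% of all genes differed 2-fold. Between pairs of heterozygous libraries the members' median differences were -0.02 (replicate 2 minus 1), 0.09 (3 minus 1) and 0.14 (3 minus 2). By this median, which measures a shift in a shared direction, the members differed more between the knockout libraries than between any pair of heterozygous ones. All genes tested also differed more between the knockout libraries. Beside the 17.2% that differed 2-fold there, the shares were 11.7% (heterozygous replicates 2 and 1), 13.6% (3 and 1) and 14.1% (3 and 2). The summed hepatocyte markers were also 2.28 times as high in knockout replicate 3 as in knockout replicate 2, and the summed neutrophil markers were at 33.0 against 215 CPM. Their part in the difference was not tested.

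**Figure D3:**
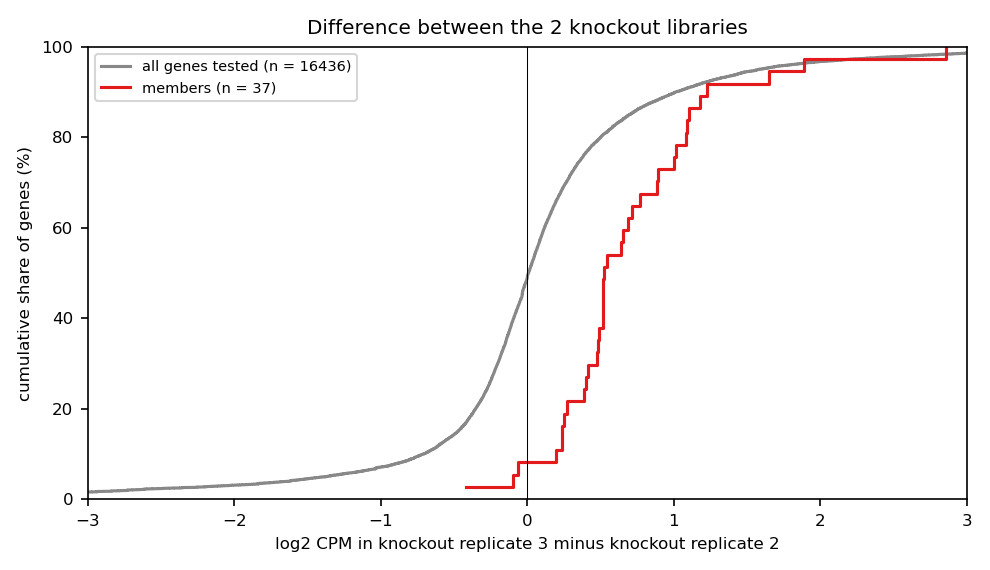
Cumulative share of genes (y axis, percent) by the log2 difference between knockout replicate 3 and knockout replicate 2 (x axis), for the 37 members in red and all 16436 genes tested in grey. The red curve lies to the right of the grey one at the medians, which are 0.53 and 0.01.

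The cytosolic RNA sensors went separate ways. Ddx58 encodes RIG-I, which detects RNA ends that carry a triphosphate. It was at 46.3, 48.0 and 37.3 CPM in the heterozygous and at 20.8 and 23.9 CPM in the knockout libraries. Both knockout values lay below every heterozygous one (log2 fold change -0.97 ± 0.16, edgeR adjusted p = 0.0159; here and later ± is the SE, with 3 heterozygous and 2 knockout libraries). Ifih1 encodes MDA5, the sensor of long double-stranded RNA, and was scarce, at 2.74, 1.75 and 2.27 CPM in the heterozygous and 1.53 and 3.26 CPM in the knockout libraries. Its knockout values stood on either side of the heterozygous ones (log2 fold change 0.09 ± 0.42, edgeR adjusted p = 0.916). Dhx58 encodes LGP2, a relative without signalling domains that modulates the other two. It was at 115 to 141 CPM in the heterozygous libraries, 136 CPM in knockout replicate 2 and 195 CPM in knockout replicate 3 (0.41 ± 0.17, edgeR adjusted p = 0.162). Zbp1, a sensor of Z-form nucleic acids that can trigger necroptosis, was at 70.6 to 103 CPM, 69.8 CPM and 112 CPM in the same order and did not pass.

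Among the transcription factors none passed. Stat2 and Irf9, which carry the interferon signal into the nucleus, were at 207 to 241 and 161 to 180 CPM in the heterozygous libraries. In knockout replicates 2 and 3 Stat2 was at 164 and 235 CPM, and Irf9 at 206 and 193 CPM. Irf9 was thus above the heterozygous range in both, by little (log2 fold change 0.22 ± 0.09, edgeR adjusted p = 0.156). Irf7, which drives transcription of the interferon alpha genes and is itself induced, was at 806, 590 and 857 CPM in the heterozygous libraries. It was at 636 CPM in knockout replicate 2 and 1274 CPM in knockout replicate 3. Knockout replicate 3 held the highest value of the 5 libraries and knockout replicate 2 the second lowest (0.35 ± 0.30, edgeR adjusted p = 0.482). Irf1, a factor that interferon gamma induces, with the GAS letters printed earlier, was at 237, 238 and 343 CPM in the heterozygous and 375 and 359 CPM in the knockout libraries. Its knockout values lay close together and just above heterozygous replicate 3 (0.43 ± 0.18, edgeR adjusted p = 0.151). Without heterozygous replicate 3 Irf1 was called higher (0.63, edgeR adjusted p = 0.0203).

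The IFIT proteins bind viral RNA and block its translation. Ifit1 was nearly silent, with 46, 95 and 18 counts in the heterozygous libraries and 1 and 20 counts in the knockout libraries. Over the groups these are 159 and 21 counts, a knockout to heterozygous ratio, scaled to library size, of 0.202 (95% exact counting interval 0.122 to 0.320), and edgeR did not call it (adjusted p = 0.252). Amplified reads vary more than counting error, and heterozygous replicate 3 and knockout replicate 3 were alike, at 0.247 and 0.258 CPM. Ifit2, which favours AU-rich RNA, was at 8.40, 10.5 and 5.74 CPM in the heterozygous and 3.82 and 4.51 CPM in the knockout libraries. Its groups did not overlap, but edgeR did not call it (-0.98 ± 0.30, adjusted p = 0.0752), while DESeq2 did (adjusted p = 0.0142). Ifit3 was at 58.6 to 70.2 CPM in the heterozygous libraries and at 46.8 and 86.5 CPM in the knockout libraries, on either side. In GENCODE M21, 51.2% of the 50-base windows of the Ifit3 transcript also stand in its copy Ifit3b, so its level is uncertain.

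The OAS enzymes make a 2'-5'-linked adenylate that activates RNase L, which cuts viral and cellular RNA. All 6 genes were higher in knockout replicate 3 than in knockout replicate 2, with a summed level of 802 against 430 CPM and 568 to 677 CPM in the heterozygous libraries. Oasl1, known in mice to hold back translation of Irf7, was at 51.7, 43.4 and 54.9 CPM in the heterozygous libraries and at 32.8 and 103 CPM in knockout replicates 2 and 3. Oasl2 was at 136, 132 and 142 CPM and then at 78.8 and 179 CPM. Their heterozygous values lay close together, and the knockout values fell well below and well above them. Oas3, which makes the longest products, was at 128, 111 and 170 CPM in the heterozygous libraries and at 68.6 and 146 CPM in the knockout libraries, the first of which was the lowest of the 5. Oas2 was at 75.5 and 108 CPM in the knockout libraries against 106 to 122 CPM. Oas1a (113 to 148 CPM) and Oas1g (47.0 to 55.6 CPM) were within the heterozygous range in knockout replicate 2, at 127 and 47.5 CPM, and above it in replicate 3, at 185 and 81.1 CPM. Of their 50-base windows 57.6% and 54.7% are shared with other Oas1 copies, so how their counts divide is uncertain. No OAS gene passed with all libraries. The fold change of Oasl1 was 1.04 (edgeR adjusted p = 0.0311) without knockout replicate 2 and -0.60 without knockout replicate 3. That of Oasl2 was 0.39 and -0.78 (edgeR adjusted p = 0.0172 for the second). With 1 knockout library left, here and in later such fits, its spread is not measured and is assumed to equal that of the heterozygous libraries.

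Isg15, a ubiquitin-like modifier that is among the most strongly induced genes, and Usp18, the protease that removes it and also dampens the receptor, differed in pattern. Isg15 was at 21.8, 20.4 and 31.5 CPM in the heterozygous libraries and at 17.7 and 41.5 CPM in the knockout libraries, which were the lowest and the highest of the 5. Usp18 was at 63.4, 58.7 and 64.8 CPM and then at 74.2 and 103 CPM, both above the heterozygous range (log2 fold change 0.51 ± 0.15, edgeR adjusted p = 0.0701). Herc6, the ligase known to attach ISG15 in mice, was at 4.69, 4.93 and 4.38 CPM in the heterozygous and 2.32 and 1.73 CPM in the knockout libraries. It was the only one of the 6 called genes that was lower in knockout replicate 3 than in replicate 2 (-1.20 ± 0.26, edgeR adjusted p = 0.0309). Of its 50-base windows 23.8% are shared with the gene model Gm45193, which overlaps it.

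Parp9 and Dtx3l encode partners in an ADP-ribosylation and ubiquitin ligase complex and lie head to head on chromosome 16. Parp9 was at 48.5, 49.9 and 36.2 CPM in the heterozygous and 22.6 and 27.2 CPM in the knockout libraries (log2 fold change -0.85 ± 0.18, edgeR adjusted p = 0.0304). Dtx3l was at 49.7, 56.3 and 39.9 CPM and then at 27.6 and 32.5 CPM (-0.70 ± 0.17, edgeR adjusted p = 0.0443). In both genes heterozygous replicate 3 was the lowest of its group and still above both knockout libraries. Their exons overlap over 9.4% and 8.0% of their length, so how reads there were counted is uncertain. Parp14, a mono-ADP-ribosyltransferase from the same stretch of the chromosome, did not share this: it was at 7.72, 12.9 and 12.01 CPM in the heterozygous and at 6.62 and 13.4 CPM in the knockout libraries.

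Effectors on nucleotides, translation and virus assembly held no called gene. Rsad2 encodes viperin, which makes a chain-terminating form of CTP, and its neighbour Cmpk2 encodes a nucleotide kinase. Rsad2 was at 11.9, 18.9 and 17.4 CPM in the heterozygous and at 5.12 and 11.02 CPM in the knockout libraries, and Cmpk2 at 57.0 to 61.3 CPM and then at 30.03 and 55.9 CPM. In both, the knockout libraries were below the heterozygous range, knockout replicate 2 by far and knockout replicate 3 narrowly. Without knockout replicate 3 both were called lower by edgeR (Rsad2 -1.64, adjusted p = 0.0375; Cmpk2 -0.96, adjusted p = 0.0159). Without knockout replicate 2 neither was (-0.54 and -0.07, edgeR adjusted p = 0.3345 and 0.763). Eif2ak2, the kinase PKR that stops translation on double-stranded RNA, was at 1.94 to 2.28 CPM and then at 1.47 and 2.12 CPM. The GTPase genes Mx1 and Mx2 were at 11.8 to 12.9 and 5.32 to 7.15 CPM in the heterozygous libraries. In knockout replicate 2 they were little apart from that, at 13.0 and 5.78 CPM, and in knockout replicate 3 higher, at 18.7 and 8.08 CPM. Samd9l, an inhibitor of translation, was at 1.24 to 1.87 CPM and then at 0.981 and 1.29 CPM.

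The genes of membrane proteins were abundant and reached their highest level in knockout replicate 3. Ifitm3, which blocks virus entry from endosomes, was at 859, 867 and 1043 CPM in the heterozygous libraries and at 783 and 1220 CPM in the knockout libraries. Bst2, the tetherin that holds budding virus at the surface, was at 237, 235 and 283 CPM and then at 260 and 408 CPM. Rtp4, a transport protein that acts on RNA viruses, was at 244, 222 and 261 CPM and then at 229 and 321 CPM. In each gene knockout replicate 3 was the highest of the 5 libraries, while knockout replicate 2 was below the heterozygous range for Ifitm3 and within it for Bst2 and Rtp4. The genes did not pass, with a log2 fold change of 0.12 ± 0.20 for Ifitm3, 0.41 ± 0.20 for Bst2 and 0.18 ± 0.16 for Rtp4 (edgeR adjusted p = 0.736, 0.211 and 0.483).

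Of the remaining induced genes, Trim30a and Ifi44 were called lower. Trim30a, which restrains Toll-like receptor signalling, was at 42.5, 40.8 and 31.4 CPM in the heterozygous and 10.6 and 17.5 CPM in the knockout libraries (log2 fold change -1.45 ± 0.26, edgeR adjusted p = 0.0197). Ifi44 was at 4.94, 9.05 and 6.73 CPM and then at 2.12 and 2.84 CPM (-1.48 ± 0.33, edgeR adjusted p = 0.0346). The groups did not overlap in either gene. Xaf1, a partner of the apoptosis inhibitor XIAP, was at 30.3, 32.3 and 32.1 CPM in the heterozygous libraries, at 6.37 CPM in knockout replicate 2 and at 23.7 CPM in knockout replicate 3. The 3 heterozygous values were nearly equal, and knockout replicate 2 alone stood far below them. edgeR did not call Xaf1 with all libraries (-1.07 ± 0.50, adjusted p = 0.195) and called it without knockout replicate 3 (-2.30, adjusted p = 0.00277), but not without knockout replicate 2 (-0.41, adjusted p = 0.154). Lgals3bp, a secreted ligand of galectins, was at 1168, 1092 and 1263 CPM and then at 1400 and 1665 CPM, both above the heterozygous range (0.38 ± 0.11, edgeR adjusted p = 0.0618). Ifi35 was at 92.7 to 103 CPM in the heterozygous and at 96.7 and 128 CPM in the knockout libraries.

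**Figure D4:**
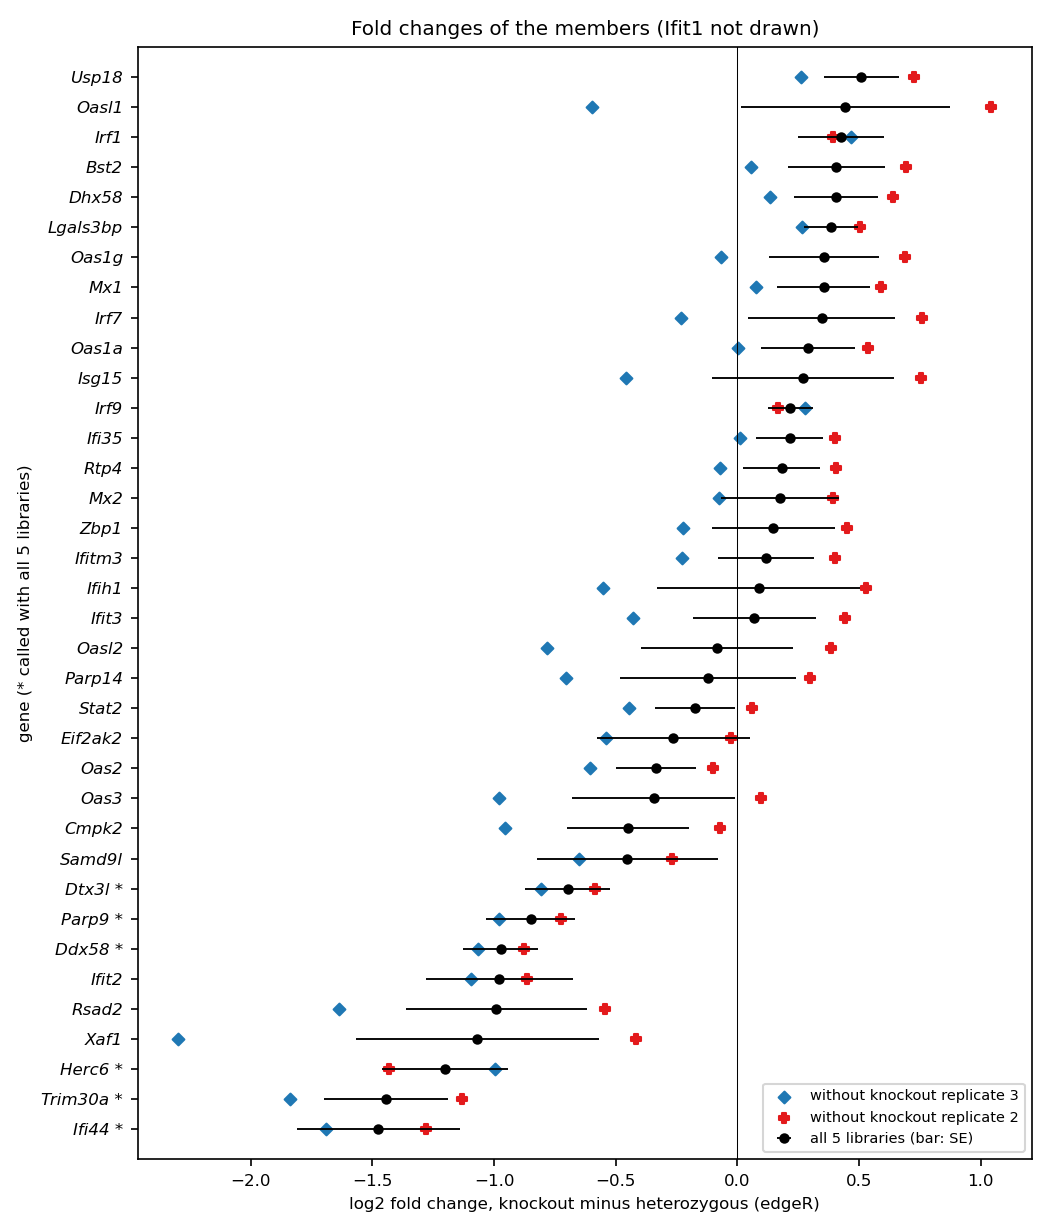
Log2 fold change, knockout minus heterozygous, of 36 genes (x axis, edgeR; Ifit1 not drawn), in order of size (y axis), with all 5 libraries and its SE in black, and with only knockout replicate 2 (blue) or only knockout replicate 3 (red) as the knockout. Asterisks mark the 6 genes called with all libraries. For these both colours lie left of 0, since both knockout values are below every heterozygous one.

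How many of the 6 calls held depended on which library was left out. Without knockout replicate 2, 0 of the 6 passed, 5.15% of all genes were called and the members' median log2 fold change was 0.39. Without knockout replicate 3, 3 of the 6 passed (Ddx58, Parp9 and Trim30a), 8 members in all were called lower, 12.9% of all genes were called (7.87% as lower) and the median was -0.54. Over all genes these medians were -0.04 and -0.07. Of the 37 members, 23 had a log2 fold change above 0 without knockout replicate 2 and 9 without knockout replicate 3. The shares of all genes above 0 were 47.6% and 46.6%. The fold change of Usp18 was 0.73 and 0.26 in these fits. None of the 6 passed without heterozygous replicate 1 or without heterozygous replicate 2, where 2.9% and 2.09% of all genes were called. The fold change of Ddx58, -0.97 with all libraries, was -0.93 and -0.90 in these fits. Without heterozygous replicate 3, 4 passed (Ddx58, Dtx3l, Parp9 and Trim30a) and 15.7% of all genes were called. The 6 genes were lower in the knockout in each of these 5 fits. That follows from both their knockout values lying below every heterozygous one, and adds nothing to it. With the mean level of the hepatocyte markers as a covariate, chosen after seeing the data, edgeR called 0 members and 0 of all genes. The members' median log2 fold change was then 0.95, against 0.0045 over all genes, and 29 of 37 were above 0. At an unadjusted p under 0.05, 17 members were then higher (45.9%, against 4.58% of all genes) and 1 lower (2.7%, against 7.09%). The hepatocyte markers summed to 19545 to 23713 CPM in the heterozygous libraries, against 4230 and 9648 CPM in knockout replicates 2 and 3. The covariate thus went largely with genotype, and apart from that mainly with the difference between the knockout libraries. This fit therefore cannot tell the genotype from the covariate. The 6 genes stayed below 0, from -0.24 for Dtx3l to -1.80 for Herc6.

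The direction of the genotype difference went along the base composition of the transcripts. The 6 called genes had a GC content of 39.4% to 47.5% (median 43.4%) and merged exons of 4111 to 9292 bases, and the 31 others a median GC content of 50.9%. Of the 19 members below the median GC content of all genes tested (49.9%), 4 had a log2 fold change above 0 (21.1%, against 32.8% of all genes below it) and 6 were called lower (31.6%, against 14.9%). Of the 18 members at or above it, 15 had a log2 fold change above 0 (83.3%, against 65.3%) and 0 were called lower, against 5.2%. The medians were -0.70 and 0.28 for the members and -0.29 and 0.20 for all genes, below and at or above that GC content. Across genes, Pearson's r between log2 fold change and GC content was 0.73 over the 37 members and 0.26 over 16389 genes, which share the same 5 libraries. The difference between the knockout libraries gave r = 0.05 over the members. With offsets for transcript length and GC content, Ddx58 (-0.58 ± 0.12, edgeR adjusted p = 0.038) and Trim30a (-0.90 ± 0.18, adjusted p = 0.0339) were still called. Parp9 (-0.59), Ifi44 (-0.83), Herc6 (-0.42) and Dtx3l (-0.31) were not (edgeR adjusted p = 0.0613, 0.129, 0.404 and 0.185), and 9.62% of all genes passed.

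**Figure D5:**
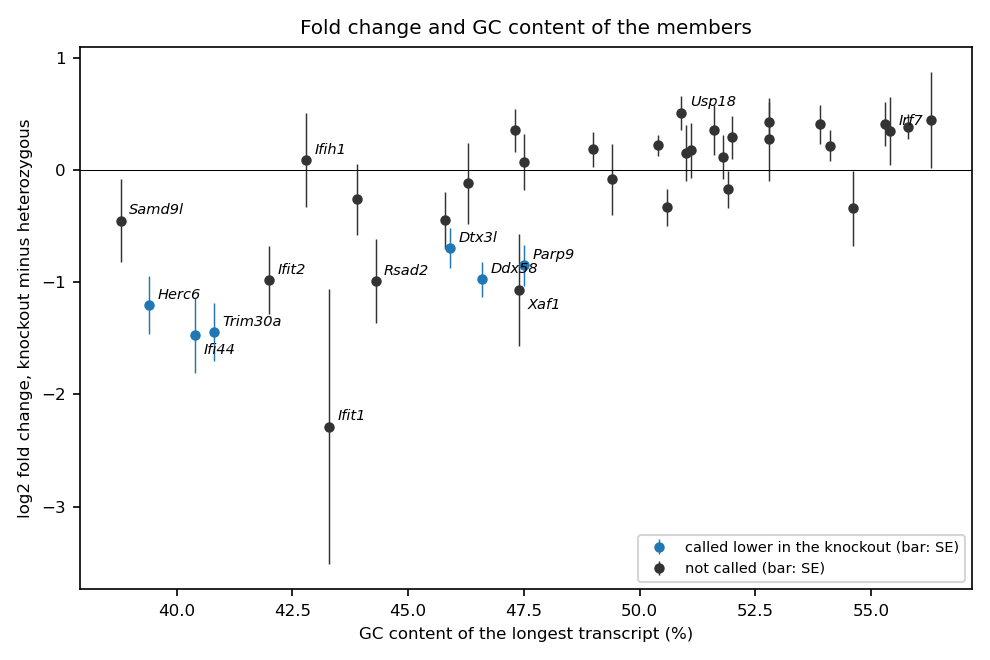
Log2 fold change, knockout minus heterozygous, with its SE (y axis) by GC content of the longest transcript (x axis, percent) for the 37 genes; blue marks the 6 called lower. The called genes lie between 39.4% and 47.5% GC, and 15 of the 18 genes at or above 49.9% GC lie above 0.

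Levels per transcript length spanned a wide range. On the RPKM scale (CPM per 1000 bases of merged exons, mean of 5 libraries), Ifitm3 came first at 1408, followed by Lgals3bp at 463, Bst2 at 315, Irf7 at 221, Rtp4 at 120 and Irf1 at 78.1. Ifit1 came last at 0.172, after Samd9l at 0.256 and Ifih1 at 0.283. The RIG-I gene Ddx58 was at 5.001 RPKM and the LGP2 gene Dhx58 at 43.2 RPKM. Ifitm3 ranged from 1155 RPKM in knockout replicate 2 to 1799 RPKM in knockout replicate 3, above every other member in each library.

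The rest of the interferon pathway was measured with 46 further genes, of which 35 were tested. Of these 35, 5 were called higher and 6 lower, beside 6.41% and 10.0% of all genes tested. Of 10 interferon genes, 9 (among them Ifnb1 and Ifna4) had 0 counts in all libraries, where 3 counts per library would be 0.0365 to 0.0412 CPM. Ifng had 8 counts in knockout replicate 2 only. The receptor gene Ifnar1 was at 135, 134 and 126 CPM in the heterozygous and 126 and 142 CPM in the knockout libraries (0.02 ± 0.10, edgeR adjusted p = 0.916). Ifnar2 was at 347 to 364 CPM and then at 431 and 407 CPM, and did not pass (log2 fold change 0.23 ± 0.08, edgeR adjusted p = 0.0977). The receptor kinases moved apart. Jak1 was at 144, 156 and 106 CPM and then at 68.1 and 58.0 CPM (-1.10 ± 0.19, edgeR adjusted p = 0.0179), and Tyk2 rose from 116, 117 and 136 CPM to 165 and 160 CPM (0.40 ± 0.10, edgeR adjusted p = 0.0485). Irf3, which switches on interferon genes, was at 71.4 to 75.5 CPM and then at 76.6 and 84.1 CPM and did not pass.

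Both knockout libraries lay on the same side for the pathway genes that passed, as they did for the 6 called members. Passing the test nearly requires this, and the groups did not overlap in 51.5% of all genes tested. Socs3, an inhibitor of JAK signalling, was at 10.2, 10.1 and 9.71 CPM in the heterozygous and 24.6 and 22.8 CPM in the knockout libraries (1.25 ± 0.13, edgeR adjusted p = 0.00719). It still passed whichever heterozygous library was left out. Ikbke, a kinase that phosphorylates interferon regulatory factors, was at 46.3, 50.8 and 64.0 CPM and then at 122 and 110 CPM (1.12 ± 0.15, edgeR adjusted p = 0.0118). It missed the threshold without heterozygous replicate 2 (edgeR adjusted p = 0.057). Mb21d1, the gene of the DNA sensor cGAS, was at 5.11, 5.09 and 3.91 CPM and then at 1.86 and 1.29 CPM (-1.58 ± 0.30, edgeR adjusted p = 0.0231). Ifngr2, a chain of the interferon gamma receptor, was at 161 to 189 CPM and then at 266 and 232 CPM (0.51 ± 0.11, edgeR adjusted p = 0.0308). Also passing, and named after their values were seen, were Jak2, Tlr7 and Pias1 (lower) and Irf8 (higher). These genes and Jak1, Tyk2, Mb21d1 and Ifngr2 missed the threshold without heterozygous replicate 1 and without heterozygous replicate 2. In those fits 2.9% and 2.09% of all genes passed. Ifngr2 and Irf8 also missed it without heterozygous replicate 3. Without knockout replicates 2 and 3 in turn, log2 fold changes were -1.23 and -0.98 for Jak1 and 0.38 and 0.44 for Tyk2. They were -2.47 and -1.55 for Jak2, -0.82 and -0.86 for Pias1, and 0.40 and 0.61 for Ifngr2. Those of Irf8 were 0.32 and 0.70, of Tlr7 -1.16 and -2.31, and of Mb21d1 -1.87 and -1.33. Each such fit leaves 1 knockout library, so it cannot settle whether these calls hold. With offsets for length and GC content, Tyk2, Jak2, Tlr7 and Pias1 were not called (edgeR adjusted p = 0.118, 0.0849, 0.0658 and 0.38), while Socs3, Ikbke, Jak1, Ifngr2, Irf8 and Mb21d1 were. The median difference between knockout replicates 3 and 2 over the 35 genes was -0.06, and the summed level of the 46 was 0.949 times as high in replicate 3 as in replicate 2, beside 1.45 times for the 37 antiviral genes.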

How the data were processed

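Kupffer cells came from mechanically disrupted liver, and libraries were made from amplified cDNA (SMART-seq V4), per the labels' protocols. The deposited values are raw counts of reads per gene. The submitters' processing notes name HTSeq 0.5.4, DESeq 1.18.0, R 3.1.2 and the build mm9. Neither the aligner nor the annotation release nor strandedness is stated in the labels. The 5 rows that name no gene were left out. Their share of all counted reads was 47%, 47.5% and 48.6% for heterozygous replicates 1, 2 and 3. For knockout replicates 2 and 3 this share was lower, at 40.0% and 42.8%. Reads marked as not unique formed most of it, with 36.2%, 37.8% and 39.4%, then 31.3% and 32.8%, in the same order. Both shares thus split by genotype, and their part in the results was not tested.

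Genotypes come from the sample titles. Genes that passed filterByExpr were scaled by TMM and tested with edgeR 4.0.16 (R 4.3.3; quasi-likelihood test, all 5 libraries, Benjamini-Hochberg adjusted p under 0.05, no minimum fold). The model had 3 residual degrees of freedom. For a single gene, an exact permutation test of 3 against 2 libraries cannot go below p = 0.1, so none was run. Counting intervals and floors (3 counts) cover counting error only. The steps were tested on simulated data.

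Length, GC content and shared 50-base windows came from GENCODE M21 (GRCm38), in which 46488 gene IDs matched, and promoters from RefSeq (GRCm38.p6). No coordinates of mm9 were used. The members and lists were chosen with earlier results of these data known. Values in every library were to be given for each called member, the 8 largest and 4 smallest ratios between the knockout libraries, the 6 highest levels per length, and 6 pathway genes with up to 6 more by p. Other members shown in full were added after their values were seen. The values of 1 pathway gene are not reported here. Alternatives were DESeq2 1.42.0, limma-voom (limma 3.58.1), other scalings and filters, a replicate block, offsets for length and GC content, each library left out, and a hepatocyte covariate chosen after seeing the data.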

Additional observations from a re-analysis of the deposited data

How the results depend on the processing

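Of all genes, 2698 passed with all libraries, 4581 with DESeq2, 1576 with offsets for length and GC content, and 335 to 2540 when 1 library was left out. Members called higher numbered 0, against 2 with DESeq2, 1 with limma-voom, 2 with upper-quartile scaling, 2 with a filter of at least 1 CPM in 2 samples, and 0 to 2 when 1 library was left out. Members called lower numbered 6, against 2 with offsets and 0 to 8 when 1 library was left out. Other pathway genes called higher numbered 5, against 11 with DESeq2, 9 with the 1 CPM filter and 1 to 6 when 1 library was left out; those called lower numbered 6, against 2 with offsets and 0 to 8. With mean hepatocyte marker level as a covariate, chosen after seeing the data, edgeR called 0 of all genes, 0 members higher, 0 members lower, and 0 and 0 pathway genes. The members' median log2 fold change was then 0.95, against 0.07 with no covariate, and 17 members were higher and 1 lower at an unadjusted p under 0.05 (4.58% and 7.09% of all genes). The covariate went largely with genotype, so this fit cannot tell the genotype from it. With the replicate number as a block, 1 gene of all passed, 0 members higher, 0 members lower and 0 and 0 pathway genes, and Ifit3 was at -0.01. Deviations of libraries with the same number were nearly uncorrelated (-0.0256 and -0.0618 for numbers 2 and 3). The deviations of the 2 knockout libraries mirror each other, so these values cannot decide whether the numbers mark pairs. Upper-quartile scaling split all calls into 1443 higher and 1499 lower, against 1054 and 1644. The cause of these changes was not tested, except that leaving out a library or adding a term leaves fewer degrees of freedom.

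Of the 37 members, 21 kept the sign of their fold change in every one of 14 alternatives (13 for Ifit1), and 16 did not. These alternatives leave out the hepatocyte covariate. For members whose genotypes did not overlap, the sign in the fits that left out 1 library follows from that and adds nothing to it. Oas1a kept its sign by little, at 0.002 without knockout replicate 3. With offsets, log2 fold changes of opposite sign were 0.12 for Oasl2, -0.04 for Isg15, 0.32 for Parp14, 0.19 for Eif2ak2, 0.19 for Samd9l and -0.17 for Ifitm3. Over the fits that left out 1 library, log2 fold changes went for Ifih1 from -0.55 to 0.53, for Zbp1 from -0.22 to 0.45, for Stat2 from -0.44 to 0.06, for Irf7 from -0.23 to 0.76, for Ifit3 from -0.43 to 0.44, for Oas1g from -0.07 to 0.69, for Oas3 from -0.98 to 0.10. They went for Oasl1 from -0.60 to 1.04, for Oasl2 from -0.78 to 0.39, for Isg15 from -0.46 to 0.76, for Parp14 from -0.71 to 0.30, for Mx2 from -0.07 to 0.39, for Ifitm3 from -0.23 to 0.40, for Rtp4 from -0.07 to 0.41. Ifit1 was not tested under the 1 CPM filter. Genes under about 0.04 CPM, the level of 3 counts, could not be told from 0.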

Other observations

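Among the 28 members with a promoter at hand, those with the ISRE letters in the 250 bases before the start had a higher median difference between the knockout libraries, with ranges that overlapped. All 10 with the letters were higher in knockout replicate 3 than in replicate 2, with a median log2 difference of 0.83 (0.52 in the least and 2.86 in Ifit1, which rests on 1 and 20 counts). Of the 18 without the letters, 15 were higher in knockout replicate 3, with a median of 0.41 (-0.42 to 1.89). At least 2-fold higher were 4 of the 10 (40.0%) and 5 of the 18 (27.8%). Over all genes tested, the medians were 0.08 for 370 genes with the letters and 0.0008 for 10623 genes without. Higher in knockout replicate 3 were 205 of the 370 and 5320 of the 10623, and at least 2-fold higher were 12.4% and 9.54%. These values describe 1 library against 1 other and carry no test.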
